A study of Drosophila melanogaster with 6 samples.

Results

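Heat shock genes and their co-chaperones were examined in Drosophila SL2 cells after depletion of Iswi. The set was 10 listed genes (Hsp22, Hsp23, Hsp26, Hsp27, Hsp67Bc, Hsp68, Hsp83, stv, DnaJ-1 and Hsf), and a member had to be read by a probe set to which the platform annotation gives exactly 1 gene symbol. By this rule 6 of the 10 genes had a probe set (Hsp26, Hsp27, Hsp68, stv, DnaJ-1 and Hsf), each with 1, out of 11983 genes read in this way on the array. Hsp22 was read only by probe sets shared with another gene. Hsp23, Hsp67Bc and Hsp83 had no probe set assigned in the annotation used here, and they were not analysed here.

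SL2 is a Drosophila cell line with features of haemocytes, the insect blood cells. Each culture was given 10 micrograms of long RNA duplex (dsRNA) for 1 hour without serum, with Iswi as the target or GST as the control target, and was harvested on day 7. The 2 groups, called ISWI and GST here, each held 3 biological replicates with 1 single-colour array apiece, and no untreated or heat-shocked culture was measured. Both groups were the same cell line in the same medium, and both received dsRNA.

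Heat shock proteins are chaperones that bind unfolded proteins. Small heat shock proteins hold them in a soluble state, HSP70 proteins refold them with the help of J-domain proteins and nucleotide exchange factors, and HSP90 acts late on selected clients. In Drosophila a single heat shock factor, encoded by Hsf, switches on the inducible genes by binding their promoters, where RNA polymerase often waits in a paused state. The small heat shock genes at the chromosomal site 67B are also known to answer to the moulting hormone ecdysone in cultured cells. Iswi encodes the ATPase of several nucleosome remodelling complexes. One of them, NURF, was purified through its action with GAGA factor on nucleosomes at an hsp70 promoter, which makes heat shock genes a natural place to look after Iswi is lost.

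Values are the deposited log2 values, so a difference of 1 is a doubling, and they are read within a probe set and never between probe sets. Tests were limited to probe sets with values over 4 on 3 or more of the 6 arrays, which held for all 6 member probe sets. Differences are ISWI minus GST with limma's standard error, and adjusted p-values are Benjamini-Hochberg values over all 7390 tested probe sets with a threshold of 0.05. RNA came from whole cultures, so fewer cells with a transcript and less of it in each cell cannot be told apart.

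The Iswi transcript stood at 10.53, 10.54 and 10.47 on the GST arrays and at 7.66, 7.74 and 7.16 on the ISWI arrays, 12.6% of the GST level by limma's fit. Of 10 haemocyte markers all were tested, 3 rose (led by eater and drpr), and 3 fell (led by NimC1), where 23.4% of all tested genes were higher and 17.6% lower. Only 2 rises and 1 fall remained in the count when GST replicate 1 or GST replicate 3 was left out. Of 7 markers of other cell types with a probe set only the neuronal gene elav was above the filter, at 6.62 to 7.13 in GST and 6.26 to 6.71 in ISWI, and it did not pass (limma adjusted p = 0.0945). ISWI replicate 2 had the widest gap between 3' and 5' control probe sets, at 2.26 for eIF-4a against 1.69 to 1.91 on the other arrays, and the mean of the 18S rRNA control probe sets was 12.99 on GST replicate 1 and 8.31 to 9.30 on the other 5 arrays.

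The heat shock genes split evenly. Hsp27, stv and Hsp68 rose after Iswi dsRNA, by 2.41-fold, 1.93-fold and 1.67-fold. Hsp26, DnaJ-1 and Hsf did not pass the test, and the widest of their 95% intervals, that of Hsp26, ran from 0.863-fold to 1.14-fold. Thus 3 of 6 members were higher and 0 lower (0 also at an unadjusted p of 0.05 in limma). Among all tested probe sets 40.2% were called, 22.1% higher and 18.1% lower. All 3 rises were of at least 1.5-fold, a size reached by 7.01% of tested probe sets in this direction. With 6 members such shares are coarse. The members were also chosen with earlier results of these data known. The shares are therefore only a description of the set and no test of it.

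**Figure D1:**
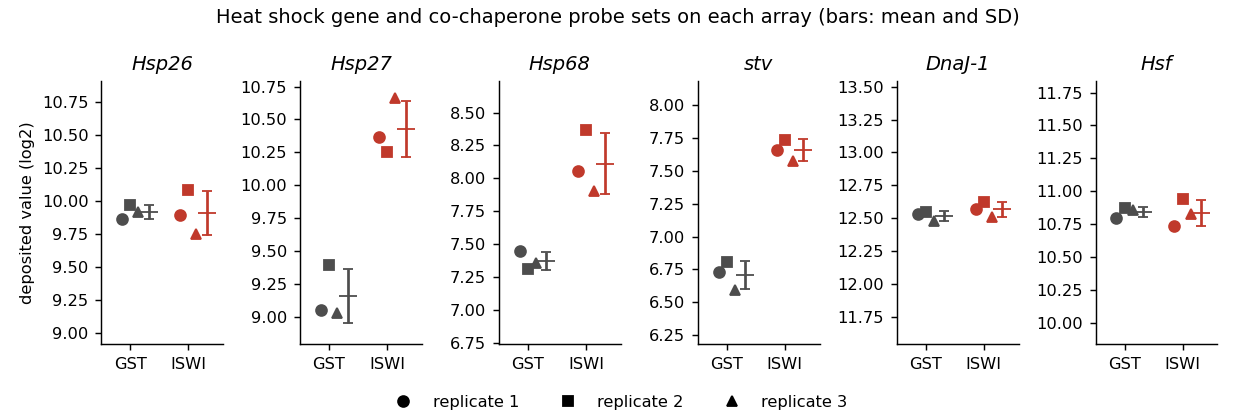
Deposited log2 value of each member probe set on the 6 arrays, one panel per gene, every vertical axis spanning 2 log2 units. Symbols are replicates, and the bar beside each group is the mean with its SD (n = 3). The ISWI arrays of Hsp27, Hsp68 and stv lie above all GST arrays, and the groups overlap for Hsp26, DnaJ-1 and Hsf.

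Among the small heat shock genes, Hsp27 encodes a chaperone that in fly cells is found in the nucleus. Its probe set (1628117_at) read 9.05, 9.39 and 9.03 on the GST arrays and 10.37, 10.25 and 10.67 on the ISWI arrays. The lowest ISWI array was thus well above the highest GST array. The mean went from 9.16 ± 0.21 to 10.43 ± 0.21 (SD, n = 3), a log2 difference of 1.27 (SE 0.13, limma adjusted p = 0.000279). The 95% interval ran from 1.95-fold to 2.99-fold. Of 7390 tested probe sets Hsp27 ranked 172 in order of rise. Its spread among GST arrays was wider than that of 93.8% of tested probe sets, owing to GST replicate 2.

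Hsp26 lies in the same cluster and encodes a cytosolic small heat shock protein. Its probe set (1635044_at) read 9.87, 9.97 and 9.92 in GST and 9.89, 10.08 and 9.75 in ISWI. The ISWI arrays lay on both sides of the GST arrays. The log2 difference was -0.01 with a 95% interval of -0.21 to 0.20 (limma adjusted p = 0.946), so a rise of the size of that of Hsp27 lay outside the interval.

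The unequal response of Hsp26 and Hsp27 can be read within each array, which cancels any scaling of the array. The Hsp27 value minus the Hsp26 value was -0.81, -0.58 and -0.89 on the GST arrays and 0.47, 0.17 and 0.91 on the ISWI arrays. The zero of this difference depends on the probes and has no meaning, and only its shift between the groups, 1.28, is read. All ISWI arrays lay above all GST arrays. By exact permutation of the arrays, two-sided, p was 0.1, which is the lowest that 3 arrays against 3 can reach. In all 3 such contrasts were computed, chosen after the values were seen, and each had an exact permutation p = 0.1 before and after Benjamini-Hochberg adjustment. Each set a gene whose groups were already seen to separate against one that hardly moved. The contrasts are therefore a description and no separate test.

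Hsp68 encodes a heat-inducible member of the HSP70 family. Its probe set (1638872_at) read 7.44, 7.31 and 7.36 in GST and 8.06, 8.37 and 7.91 in ISWI. All ISWI arrays were above all GST arrays, with the highest on ISWI replicate 2, the array with the widest 3' to 5' gap. The log2 difference was 0.74 (SE 0.12, limma adjusted p = 0.00233). Without that array it was 0.61 with a limma adjusted p = 0.00232. The annotation gives this probe set to Hsp68 alone. Cross-hybridisation with related HSP70 transcripts was not tested.

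The heat-inducible Hsp70 genes themselves come in near-identical copies, and their probe sets carry several symbols, so no value can be given to a single copy. The probe set listed for Hsp70Aa and Hsp70Ab read 9.48, 9.65 and 9.48 in GST and 9.79, 9.76 and 9.48 in ISWI. The groups overlapped, and the log2 difference was 0.14 with a 95% interval of -0.08 to 0.36 (limma adjusted p = 0.269). Of 2 probe sets listed for Hsp70Ba, Hsp70Bb, Hsp70Bbb and Hsp70Bc, the one above the filter read 10.32, 10.55 and 10.35 in GST and 10.30, 10.72 and 10.13 in ISWI, with a log2 difference of -0.02 and an interval of -0.36 to 0.31 (limma adjusted p = 0.908). A further one, listed for Hsp70Bb and Hsp70Bc, had a log2 difference of -0.09 and an interval of -0.43 to 0.25 (limma adjusted p = 0.656). None of these 3 probe sets passed. The other probe set of the 4 Hsp70B copies read 2.76 to 2.81 on all arrays, and one listed for Hsp70Bb, Hsp70Bc and CG31343 read 2.09 to 2.11, so neither was tested. The intervals of the 3 tested Hsp70 probe sets end below the 0.46 at which that of Hsp68 begins. The difference between these probe sets and that of Hsp68 was not tested.

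For Hsp22, a small heat shock protein of mitochondria, both probe sets are listed for Hsp22 and CG4456 together. One was below the filter, at 2.73 to 2.87. The other read 10.37, 10.40 and 10.52 in GST and 10.17, 10.38 and 10.19 in ISWI, so 1 ISWI array fell among the GST arrays. The log2 difference was -0.18 with an interval of -0.36 to -0.01, and it did not pass after adjustment (limma adjusted p = 0.0872).

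**Figure D2:**
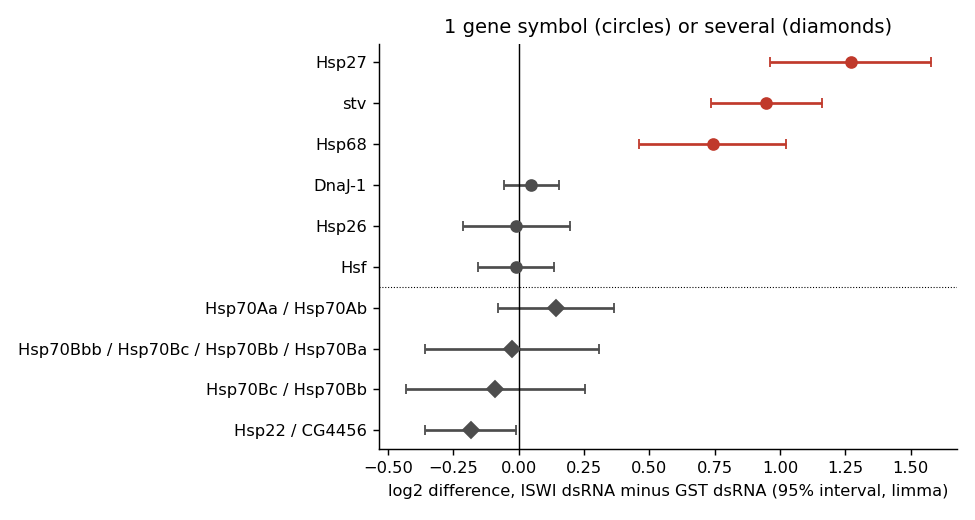
Log2 difference, ISWI minus GST, with limma's 95% interval for the 6 member probe sets (circles) and the 4 tested probe sets that carry several heat shock symbols (diamonds). Hsp27, stv and Hsp68, in red, passed, and the intervals of DnaJ-1, Hsp26, Hsf and the Hsp70 probe sets span 0.

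Of the co-chaperones, stv (starvin) encodes a BAG-domain protein, the fly counterpart of mammalian BAG3, which releases nucleotide from HSP70 and takes part in the disposal of damaged proteins by autophagy. Its probe set (1634364_s_at) read 6.73, 6.80 and 6.60 in GST and 7.66, 7.74 and 7.57 in ISWI. The groups lay far apart, and the ISWI arrays agreed closely with each other. The mean went from 6.71 ± 0.11 to 7.66 ± 0.08 (SD, n = 3), a log2 difference of 0.95 (SE 0.09, limma adjusted p = 0.000198). The value for stv minus that for Hsp26 moved by 0.96 between the groups, in the same direction on all ISWI arrays (exact permutation p = 0.1). As the pair was chosen after the values were seen, this is no separate test of the rise of stv.

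DnaJ-1 encodes an HSP40 protein, whose J domain starts the ATPase cycle of HSP70. Its probe set (1637059_s_at) read 12.53, 12.55 and 12.48 in GST and 12.57, 12.62 and 12.51 in ISWI. The groups overlapped, and the log2 difference was 0.05 with an interval of -0.06 to 0.15 (limma adjusted p = 0.431). This is the narrowest interval among the 6 members.

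Hsf encodes the transcription factor that drives the inducible genes under heat. Its probe set (1626844_at) read 10.80, 10.87 and 10.86 in GST and 10.74, 10.94 and 10.82 in ISWI. The log2 difference was -0.01 with an interval of -0.15 to 0.14 (limma adjusted p = 0.920). The array measures its transcript and says nothing of the activity of the protein, which is known to be set by trimer formation after translation.

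**Figure D3:**
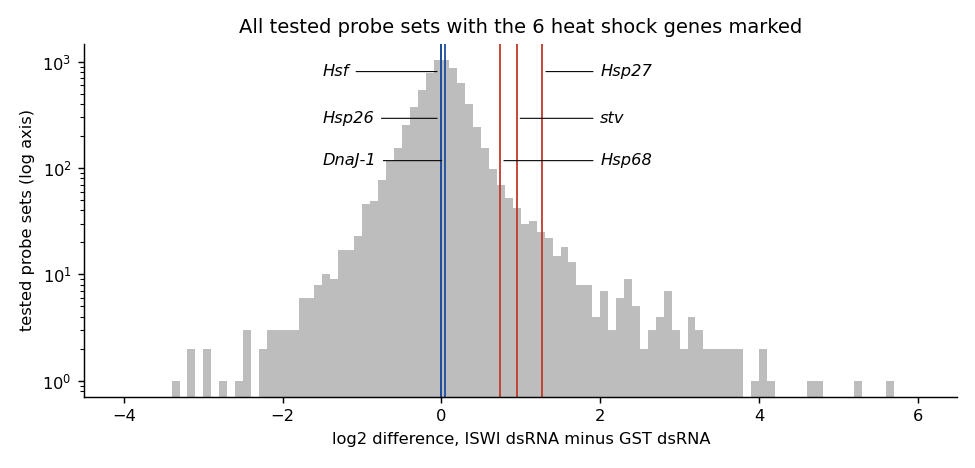
Number of probe sets (log axis) by log2 difference, ISWI minus GST, for all 7390 tested probe sets in bins of 0.1, with the 6 members as lines. Hsp68, stv and Hsp27 lie on the right flank of the distribution, and DnaJ-1, Hsp26 and Hsf lie at its centre.

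The members that rose stood on the flank of the distribution of all changes without being at its end. stv ranked 271 and Hsp68 ranked 383 among rises, and Hsf, Hsp26 and DnaJ-1 had changes in size above only 2.96%, 2.75% and 14.2% of tested probe sets. The median log2 difference was 0.39 over the 6 members and 0.01 over all tested probe sets. No member lay near the former, which falls in the gap between DnaJ-1 at 0.05 and Hsp68 at 0.74. Groups did not overlap for 3 of 6 members, all with ISWI above, against 54.1% of all tested probe sets in either direction and 29.4% with ISWI above.

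Within the groups most members shared a pattern over arrays. GST replicate 2 held the highest value of its group for 5 of 6 members, and ISWI replicate 2 did so for 5 of 6, against 34.1% and 39.3% of all tested probe sets. ISWI replicate 3 was the lowest of its group for 4 of 6 members, against 29.9% of tested probe sets. There were exceptions. Among ISWI arrays Hsp27 had its lowest value on replicate 2 and its highest on replicate 3, and Hsf had its lowest on replicate 1. Among GST arrays Hsp68 had its lowest value on replicate 2. Array effects and shared regulation behind the pattern were not tested. Without GST replicate 1 and ISWI replicate 2, the arrays whose control probe sets stood apart (an alternative added after seeing the data), the rises were 1.31 for Hsp27, 0.92 for stv and 0.65 for Hsp68, and all 3 passed.

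The neighbourhood of Hsp26 and Hsp27 was followed by gene order in the Release 6 gene table, with 9 genes from Hsp67Bc to Hsp27 and 10 flanking genes. Of the 5 neighbours that were tested (Klp67A, CG4452, Fdx1, CG4080 and eIF4E1), all flanking genes, 1 was higher and 0 lower. At an unadjusted p of 0.05 in limma, 1 was lower. Fdx1, which encodes a ferredoxin, was higher by 0.25 (limma adjusted p = 0.0399), a call that was lost when any array other than ISWI replicate 1 was left out. There were 2 higher neighbours without ISWI replicate 3, and 0 higher and 1 lower when the arrays were quantile-normalized again. On the Hsp27 side, the translation factor gene eIF4E1 had a log2 difference of 0.00 with a standard error of 0.04, and CG4080 had 0.24 with a standard error of 0.21. Inside the cluster, CG4461, another small heat shock gene, was far below the filter at 2.41 to 2.48 on all arrays.

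**Figure D4:**
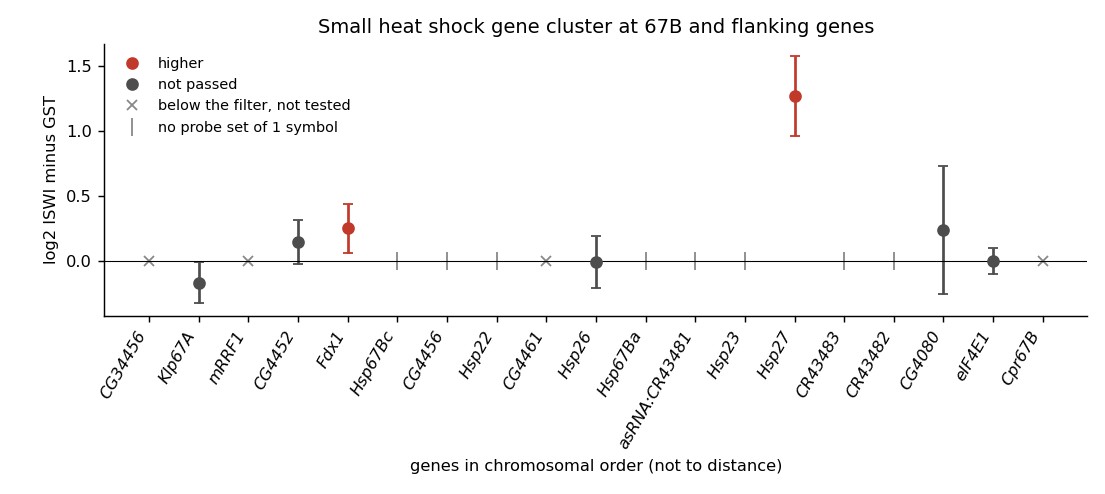
Log2 difference, ISWI minus GST, with limma's 95% interval for genes of the 67B cluster and 5 flanking genes on each side, in chromosomal order and not to distance. Crosses are genes below the filter, and upright ticks are genes without a probe set of 1 symbol. Hsp27 stands at 1.27, and Hsp26 and the tested flanking genes lie between -0.17 and 0.25.

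Other chaperone genes were followed by family, with 1 probe set per gene, and counts are set against the 41.1% of 6011 tested genes that were called, 23.4% higher and 17.6% lower. The median log2 difference over all tested genes was 0.03. In the HSP70 and HSP110 family the constitutive members were lower where they changed, unlike Hsp68: of 4 tested genes 3 fell and 0 rose (0 also at an unadjusted p of 0.05 in limma). The median was -0.16. Hsc70-5, the mitochondrial HSP70, fell by 0.30 (limma adjusted p = 0.000364) with values of 13.47, 13.51 and 13.47 in GST and 13.17, 13.20 and 13.19 in ISWI. Hsc70-4, the main cytosolic form, and Hsp110, a nucleotide exchange factor, fell by 0.14 and 0.18. Only Hsc70-5 kept its call whichever array was left out. The count was 1 lower without GST replicate 2, ISWI replicate 1 or ISWI replicate 2. Hsc70-3, the HSP70 of the endoplasmic reticulum (chosen after its value was seen), had a log2 difference of -0.02 and an interval of -0.09 to 0.06. Hsc70-1 and Hsc70-2 stood at 2.28 to 2.62 on all arrays, below the filter. Of the small heat shock genes outside the members, 0 of 4 with a probe set were above the filter, and l(2)efl, CG4461, CG7409 and CG13133 read 2.05 to 3.02.

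Of 19 J-domain genes tested, 4 rose and 4 fell, and the median was -0.07. The share called was 42.1%, near the 41.1% of all tested genes. The largest rise was in CG5001, a gene for a J-domain protein known only by number, which read 5.20, 5.26 and 5.35 in GST and 7.46, 7.32 and 8.45 in ISWI. All ISWI arrays lay above the GST arrays, with ISWI replicate 3 far above the other two. The log2 difference was 2.47 with a standard error of 0.27 (limma adjusted p = 0.000317), and it was 2.12 to 2.68 when each array was left out in turn. The value for CG5001 minus that for DnaJ-1 moved by 2.43 between the groups (exact permutation p = 0.1). This pair too was chosen after the values were seen and is no separate test of the rise.

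The other J-domain changes were smaller. wus (wurst), a membrane J-domain protein of endocytosis, read 6.71, 6.96 and 6.86 in GST and 8.10, 8.25 and 8.36 in ISWI, a rise of 1.39 (limma adjusted p = 5.52e-05). Sec63, which serves protein import into the endoplasmic reticulum, rose by 0.48. jdp read 4.54, 4.58 and 4.44 in GST and 3.50, 3.81 and 3.55 in ISWI, at least 1.43-fold lower. It entered the test only through the GST arrays, so its call is no support for a fall, and with the filter set on all 6 arrays the J-domain count was 4 higher and 3 lower. The calls of CG5001, wus and Sec63 held whichever array was left out. Of all tested genes 7.22% rose and 4.86% fell by at least 1.5-fold. Leaving out GST replicate 1 or GST replicate 2 reduced the J-domain calls to 3 rises and 2 falls.

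Of 15 tested genes listed as HSP90 paralogues and co-chaperones, 2 were higher and 2 lower, with a median of -0.03. The share called was 26.7%, below the 41.1% of all tested genes. Stip1, which bridges HSP70 and HSP90, read 12.89, 12.93 and 12.86 in GST and 12.57, 12.59 and 12.49 in ISWI, and fell by 0.35 (limma adjusted p = 0.000675). CG1416, related to the HSP90 activator Aha1, fell by 0.34. STUB1, the ubiquitin ligase known as CHIP, rose by 0.32, and the immunophilin gene Fkbp59 rose by 0.25. All 4 calls held when any single array was left out. Of 5 tested genes of mitochondrial chaperonin and proteases, ClpX was higher by 0.15 and 0 were lower (0 also at an unadjusted p of 0.05 in limma), with a median of 0.12, and the count was 0 without any one of the arrays.

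**Figure D5:**
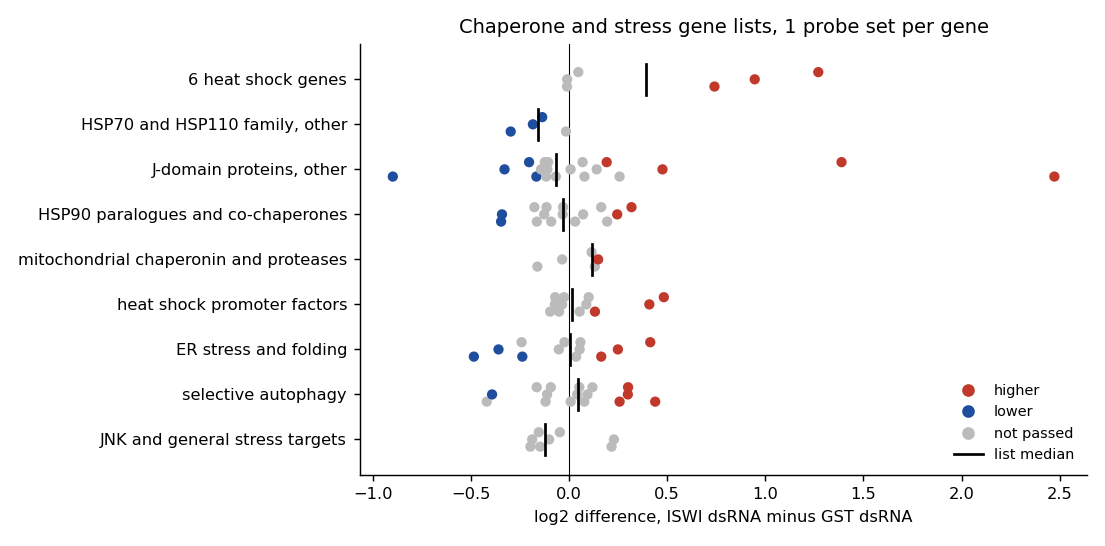
Log2 difference, ISWI minus GST, for the 6 members and the tested genes of 8 lists, 1 point per gene, coloured by limma call, with a vertical bar at each list's median. CG5001 at 2.47 and wus at 1.39 lie farthest to the right, and the 4 other HSP70 family genes all lie below 0.

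Among factors known from heat shock promoters and pausing, 3 of 12 tested genes were higher and 0 lower (0 also at an unadjusted p of 0.05 in limma), with a median of 0.01. Of all tested genes 23.4% were higher and 17.6% lower. NELF-B, of the negative elongation factor, rose by 0.48 and spt4, of the pausing factor DSIF, by 0.41. Other subunit genes of these factors did not pass: Nelf-E and TH1 had log2 differences of 0.10 and 0.09, and Spt5 had -0.03. Caf1-55, a NURF subunit, was higher by 0.13, a call lost when any array was left out. Nelf-E, TH1, Spt5, Trl, E(bx) and Nurf-38 were singled out after their values were seen. Trl, which encodes GAGA factor, had a log2 difference of -0.07 with an interval of -0.20 to 0.06. The NURF subunit genes E(bx) and Nurf-38 had -0.02 with an interval of -0.18 to 0.13 and -0.05 with an interval of -0.16 to 0.06.

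Neighbouring stress pathways were read for comparison. Of 12 tested genes of endoplasmic reticulum stress and folding 3 rose and 3 fell, with a median of 0.01, where 23.4% of all tested genes rose and 17.6% fell. The counts of this list became 1 rise and 2 falls when GST replicate 1 or GST replicate 3 was left out. Ero1L and Cnx99A, of oxidative folding and glycoprotein quality control, fell by 0.48 and 0.36, and Herp and the kinase gene PEK rose by 0.41 and 0.25. The Herp call was lost without GST replicate 1 or GST replicate 3.

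Of 16 genes listed as selective autophagy, most of them general autophagy genes, 4 rose and 1 fell, with a median of 0.05. Of all tested genes 23.4% rose and 17.6% fell. The cargo receptor gene ref(2)P fell by 0.39, and Atg7, Atg9 and Atg18a rose by 0.44, 0.30 and 0.26. Leaving out GST replicate 3 gave 2 rises and 1 fall, with the Atg7 call lost, and leaving out GST replicate 1 and ISWI replicate 2 together gave 0 rises and 1 fall. Of 8 tested JNK and general stress targets 0 passed limma in either direction, 0 also at an unadjusted p of 0.05, with a median of -0.12, and 2 were lower without ISWI replicate 2.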

How the data were processed

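RNA of 6 SL2 cultures was measured, 3 per group by the treatment in the titles. Every test started from the log2 table as deposited, for which the submitters' processing notes name GCRMA. Its version, the array's background settings and other steps are not given in the sources used here.

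Of 18952 probe sets 183 controls were left out, and of the other 18769 the platform annotation gave 13647 with 1 symbol, 402 with several and 4720 with none. Of the first, 13544 matched the Release 6 gene table, used for names and gene order only. Models were fitted by lmFit and eBayes with trend (limma 3.58.1, R 4.3.3), two-sided, and the procedure was tested on simulated data. The simulated data had equal spread in both groups and few changed probe sets. In the measured data the median SD was 0.07 in GST and 0.11 in ISWI, and 40.2% of tested probe sets were called. The simulation therefore does not give the error rate here. The probe set with the highest mean stood for its gene in lists. Where all arrays of a group were at or below 4, the change is "at least N-fold" against 4. In lists the text names up to 4 passing genes by smallest adjusted p. The members and lists were chosen with earlier results of these data known. Alternatives were other filters, normalization, variance moderation, array weights, a replicate block, a stricter threshold, averaged probe sets and leaving out arrays. With arrays, their number limits the precision. The error behind each limma p-value is the spread over cultures, which the design calls biological replicates, moderated by a trend over all tested probe sets. No sequences were used here, and promoter motifs were not analysed here.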

Additional observations from a re-analysis of the deposited data

How the results depend on the processing

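The 3 rises were called under all 17 alternative settings, with log2 differences of 1.15 to 1.39 for Hsp27, 0.89 to 0.99 for stv and 0.61 to 0.84 for Hsp68, and adjusted p of at most 0.00391, 0.00503 and 0.0141 in limma. The count of members called was 3 under all 18. DnaJ-1, Hsp26 and Hsf passed under none. The sign of the last pair, near 0, turned when single arrays were left out: without single arrays Hsp26 ran from -0.10 to 0.07 (0.02 without GST replicate 2, 0.070 without ISWI replicate 3) and Hsf from -0.06 to 0.04 (0.01 without GST replicate 2, 0.038 without ISWI replicate 1), and with GST replicate 1 and ISWI replicate 2 both left out they were -0.12 and -0.083. Correlations of deviations between arrays of the same replicate number were -0.18, 0.12 and 0.06. No GST array correlated best with the ISWI array of its own number. With 3 arrays per group these values cannot settle whether replicate numbers pair the cultures. With the replicate block the members' calls were the same, with limma adjusted p of 0.00195 for Hsp27. The calls among 67B neighbours and mitochondrial chaperonin genes went from 1 to 0. Those in the HSP70 list and among heat shock promoter factors went from 3 to 2.

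Of all tested probe sets 2974 were called, 1749 at an adjusted p of 0.01 and 2100 to 3023 without single arrays. Counts called in the smaller lists moved further. Neighbours at 67B had 1 called gene, 0 with no filter or at an adjusted p of 0.01, 2 when arrays were centred, 1 (lower, not higher) when quantile normalization was applied again, and 0 to 2 without single arrays. The HSP70 list had 3, 1 with no filter or at 0.01, and 1 to 2 without single arrays. The mitochondrial list had 1, 2 when quantile normalization was applied again, and 0 with no filter, centred arrays, eBayes without trend, array weights, an adjusted p of 0.01 or any array left out. The J-domain list had 8, 5 at an adjusted p of 0.01 and 5 to 8 without single arrays. The endoplasmic reticulum list had 6, 2 at 0.01 and 3 to 7 without single arrays. The autophagy list had 5, 3 with no filter, 2 at 0.01 and 3 to 5 without single arrays. Haemocyte markers had 6, 3 at 0.01 and 3 to 6 without single arrays. The stress target list had 0, with 0 to 2 without single arrays, and markers of other cell types 0, with 0 to 1. Without GST replicate 1 and ISWI replicate 2 together, chosen after seeing the data, the counts were 0 for neighbours and mitochondrial genes, 1 for the HSP70, autophagy and stress target lists, 5 for J-domain genes, and 3 for endoplasmic reticulum genes and haemocyte markers. An adjusted p of 0.01 calls fewer genes by construction. The causes of the other moves were not tested.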
